A study of Rattus norvegicus with 8 samples.

Results

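The genes examined here encode the machinery by which rat cells show peptides to T cells: *Cd74*, *RT1-Da*, *RT1-Ba*, *RT1-Bb*, *RT1-Db1*, *Ciita*, *B2m*, *Tap1*, *Psmb8* and *Psmb9*. The 10 genes were chosen by name, with no threshold on their values, and the array carried 13 probes for them out of 45598 distinct probes. Of these, 12 probes for 9 genes were bright enough to be tested, out of 23111 tested probes in all. The single probe of *RT1-Ba* was not well above background on any of the 7 arrays with complete background marks, so no fold change is given for it.

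RNA from laser-microdissected cells of F344 rat livers was hybridised to 1-colour Agilent arrays, 1 array per sample, giving 8 samples. Mature hepatocytes (MHs) were taken in 2 samples. Clusters of small hepatocyte-like progenitor cells (SHPCs) were taken in 3 samples from control livers without transplantation, and in 3 samples from livers that had received bone marrow-derived mesenchymal cells (BM-MCs). The titles of the MH samples do not say whether their livers had received BM-MCs. The paper describes MHs around SHPCs, and its discussion speaks of MHs from livers with BM-MCs. All recipients, the controls included, were female rats treated with retrorsine (Ret), a plant alkaloid that blocks hepatocyte division, followed by partial hepatectomy (PH), per the study's methods. The BM-MCs came from the bone marrow of male F344 rats, were grown in culture and were injected into the spleen. Every sample is labelled with the strain positive for dipeptidylpeptidase IV (DPPIV), while recipients lacking DPPIV are described in the methods. Neither the labels nor the methods say which animal a sample came from, so samples may share an animal, and the p-values, which measure the spread between samples, may then be too small. A dissected cluster can hold sinusoidal and Kupffer cells beside hepatocytes, and in such bulk RNA fewer cells of a type cannot be told apart from less RNA per cell.

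As background, these genes belong to a class II route and a class I route of presentation. In the class II route, *RT1-Da* with *RT1-Db1*, and *RT1-Ba* with *RT1-Bb*, encode the paired chains of the RT1-D and RT1-B molecules, the invariant chain Cd74 guards their groove on the way to the endosome, and Ciita is the coactivator that switches their promoters on. In the class I route, the interferon-inducible proteasome subunits Psmb8 and Psmb9 cut cytosolic proteins, Tap1 with Tap2 pumps the peptides into the endoplasmic reticulum, and B2m is the light chain of every classical class I molecule. In liver, class II is mainly a property of Kupffer cells, dendritic cells and endothelium, while resting hepatocytes carry class I and little class II.

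In the RefSeq annotation of the GRCr8 build, 7 of the 10 genes lie within 159.0 kb of the major histocompatibility complex on chromosome 20, from 4515393 to 4674421. *Cd74* lies on chromosome 18, *Ciita* on chromosome 10 and *B2m* on chromosome 3. RefSeq promoter windows, from 250 bases before to 50 bases after the RNA start, were found for 9 of the 10 genes, all but *Ciita*. Class II promoters are known for an X box followed by a Y box, the elements on which Ciita is assembled, so the upstream stretches of the 5 class II genes are shown. Capitals mark the letters of the Y box (ATTGG, or CCAAT on the other strand), of the X1 box (CCNNGNNAC) and of a second form of the X1 box (GNNACNGAT), which was added after the sequences had been read. The *Cd74* stretch is chr18:56526956-56527065 on the plus strand, the *RT1-Da* stretch chr20:4515265-4515384 (plus), the *RT1-Ba* stretch chr20:4576907-4577026 (plus), the *RT1-Bb* stretch chr20:4604149-4604268 (minus) and the *RT1-Db1* stretch chr20:4560193-4560312 (minus).
Cd74: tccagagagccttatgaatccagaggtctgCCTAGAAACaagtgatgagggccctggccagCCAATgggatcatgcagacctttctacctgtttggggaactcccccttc
RT1-Da: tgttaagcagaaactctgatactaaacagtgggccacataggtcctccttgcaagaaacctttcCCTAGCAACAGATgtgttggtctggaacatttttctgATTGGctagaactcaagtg
RT1-Ba: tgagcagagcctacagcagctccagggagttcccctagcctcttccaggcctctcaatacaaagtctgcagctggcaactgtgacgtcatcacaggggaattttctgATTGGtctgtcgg
RT1-Bb: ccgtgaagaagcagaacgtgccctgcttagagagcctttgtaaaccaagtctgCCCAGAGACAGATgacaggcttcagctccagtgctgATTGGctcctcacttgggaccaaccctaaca
RT1-Db1: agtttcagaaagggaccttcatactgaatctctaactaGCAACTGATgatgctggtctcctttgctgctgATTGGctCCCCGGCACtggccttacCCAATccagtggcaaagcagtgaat
All 5 windows held a Y box. It began at position -49 from the RNA start in *RT1-Da*, -43 in *RT1-Ba*, at -61 and, on the other strand, -172 in *RT1-Bb*, at -80 and, on the other strand, -55 in *RT1-Db1*, and at -189 on the other strand in *Cd74*. The X1 box as searched began at -86 in *RT1-Da*, -97 in *RT1-Bb*, -220 in *Cd74* and -73 in *RT1-Db1*, where it lies between the Y boxes, and also at 14 in *Cd74* and 37 in *RT1-Bb*, inside the transcripts. The second form began at -112 in *RT1-Db1*, upstream of both Y boxes, at -82 in *RT1-Da*, and at -185 and -93 in *RT1-Bb*. No X1 box of either form was matched in the *RT1-Ba* window. The search was exact, and the stretch shown holds a near match to the X1 box upstream of its Y box. Absence of an X box is therefore not shown. These letters are common: on either strand, 37.5% of all 33469 promoter windows held the Y box, 46.8% the X1 box and 7.83% the second form, so a match is a description and not a site. The sequences are those of the reference strain, and whether the F344 alleles or the array's probes match them was not tested.

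Among the class I members, the *B2m* window held a Y box at -64 and a short form of the interferon-stimulated response element (ISRE, GAAANNGAA) at -150. *Psmb8* held a Y box at -73, an ISRE form at -3, across the RNA start, and a gamma-activated site (GAS, TTCNNNGAA) at -245. *Tap1* held an ISRE form at -120 and no other motif of those searched. *Tap1* and *Psmb9* are transcribed away from each other from starts 457 bases apart, and *Psmb9* held an X1 box at -107 and a Y box at 22, inside the transcript. The ISRE form was present in 9.71% and the GAS in 8.87% of all windows.

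**Figure D1:**
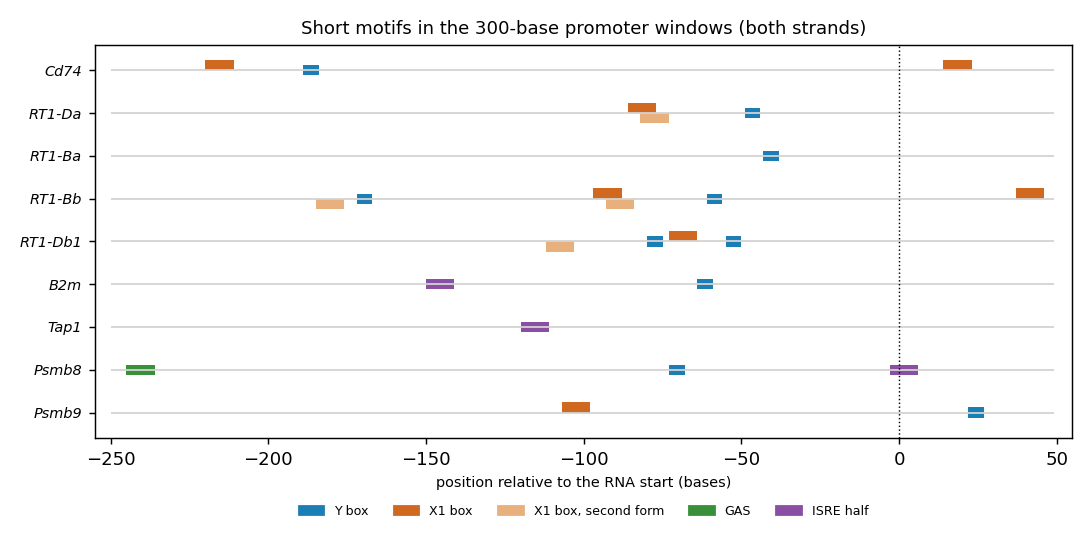
Positions of the searched motifs, on either strand, in the promoter windows of the 9 members with a RefSeq entry, in bases from the RNA start (dotted line). A Y box lay between -80 and -43 in the 4 windows of *RT1-Da*, *RT1-Ba*, *RT1-Bb* and *RT1-Db1*, while in *Cd74* it lay further upstream, at -189.

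The labelled cell type was checked against its markers first. All 16 hepatocyte markers measured, among them *Alb* and *Ttr*, were above background on all 7 arrays that could be scored. All 20 macrophage and Kupffer cell markers, among them *Cd68*, *Clec4f* and *C1qa*, were bright enough to be tested. So were 7 of 9 dendritic cell markers on the array, 4 of 8 B cell markers and 9 of 16 markers of T and natural killer cells, so these lists were mixed. The T cell receptor chains *Cd3d* and *Cd3g*, the dendritic cell factors *Batf3* and *Zbtb46*, the B cell factor *Pax5* and the cytotoxic genes *Prf1* and *Nkg7* were well above background on all 7 scored arrays, while *Cd3e*, *Xcr1*, *Ccr7*, *Ms4a1* and *Ncr1* were so on none. The summed linear level of the tested dendritic cell markers, relative to each array's 75th percentile, was 1.43 to 1.74 in MHs, 0.905 to 1.28 in controls and 1.10 to 1.33 with BM-MCs. For T and natural killer cell markers it was 5.30 to 6.63, 5.34 to 7.92 and 5.67 to 6.96, in the same order. Of the 4 tested B cell markers, 1 was higher and 3 lower with BM-MCs than in controls (median -0.26). A single slide, scanned once, carried all 8 arrays. The first set of 4 arrays held both MH samples and control SHPC replicates 1 and 2, and the second held control SHPC replicate 3 and the 3 SHPC samples with BM-MCs. Position on the slide and transplantation therefore largely coincide. For the members, differences within a set are given beside those over all samples, while the lists are given over all samples only.

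On average *Cd74*, *RT1-Da*, *RT1-Db1* and *RT1-Bb* were highest in MHs and lowest in SHPCs with BM-MCs, with control SHPC replicate 3 close to the latter. All levels below are log2 signals relative to the 75th percentile of the array, so that a difference of 1 is a factor of 2, and levels are compared between samples and not between probes. *Cd74*, the invariant chain, read 3.62 and 4.07 in MHs, 3.38, 3.43 and 2.52 in control SHPCs, and 3.01, 2.90 and 2.58 in SHPCs with BM-MCs. Both MHs stood above all 6 SHPC samples, and control SHPC replicate 3 lay below every SHPC sample with BM-MCs while the other controls lay above them. *RT1-Da*, the alpha chain of RT1-D, read 2.22 and 3.17 in MHs, 2.398, 2.36 and 1.14 in control SHPCs, and 1.77, 1.39 and 1.35 with BM-MCs. Its partner *RT1-Db1*, the beta chain, read 2.69 and 3.44 in MHs, 2.74, 2.71 and 1.84 in controls, and 2.25, 1.86 and 1.72 with BM-MCs. In both chains, MH replicate 1 lay within the range of the controls and MH replicate 2 above it. *RT1-Bb*, the beta chain of RT1-B, read 0.24 and 1.48 in MHs, 0.67, 0.25 and -0.12 in controls, and 0.42, -0.30 and -0.17 with BM-MCs, so that its groups overlapped in every comparison. *RT1-Ba*, the alpha chain that pairs with it, gave signals between -8.58 and -7.84, none well above background. The array's annotation places this probe at chr20:4700973-4701032 (rn4, plus strand).

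**Figure D2:**
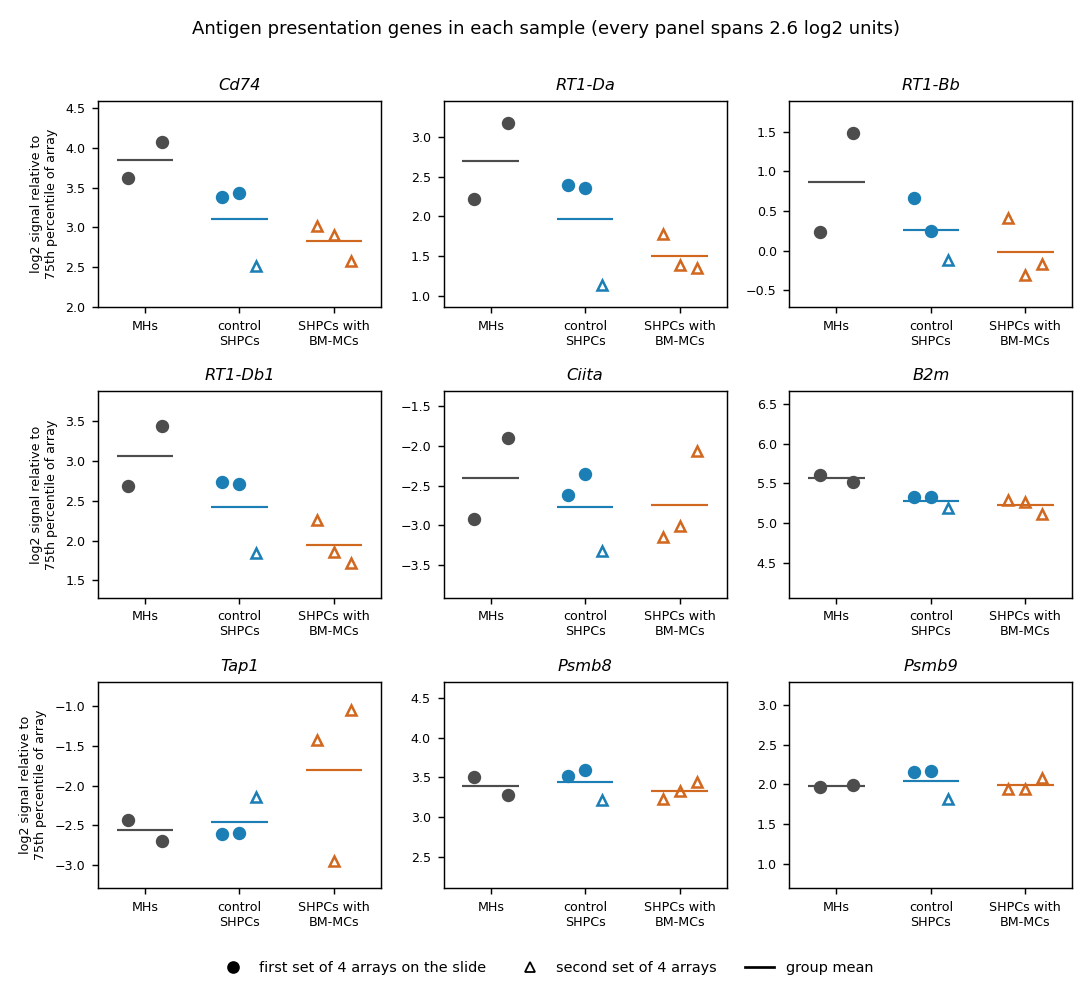
Log2 signal relative to the array's 75th percentile (vertical axes, each panel with the same span) of the 9 tested members in the 2 MH, 3 control SHPC and 3 BM-MC SHPC samples. Filled circles are the first and open triangles the second set of 4 arrays, and lines are group means. *Cd74*, *RT1-Da* and *RT1-Db1* were lower on all 4 triangles than on any circle, whereas *Psmb8* and *Psmb9* spanned only 0.38 and 0.34 over all samples.

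No member passed an adjusted p of 0.05 in any of the 3 comparisons (limma with Benjamini-Hochberg adjustment over all 23111 probes). Between SHPCs with BM-MCs and MHs, 0 of 9 members were called where 0.338% of all probes were, and 4 members (*Cd74*, *RT1-Da*, *RT1-Db1* and *B2m*) had an unadjusted p under 0.05, as did 13.3% of all probes. Of the 9, 2 had a higher and 7 a lower mean with BM-MCs, with a median log2 difference of -0.34 against 0.0030 over all probes. *RT1-Da* was 2.29-fold lower with BM-MCs, a log2 difference of -1.19 (standard error 0.44, adjusted p = 0.335). *RT1-Db1* differed by -1.12 (standard error 0.34, adjusted p = 0.29), *Cd74* by -1.01 (standard error 0.30, adjusted p = 0.283) and *RT1-Bb* by -0.88 (standard error 0.40, adjusted p = 0.398). *Cd74*, *RT1-Da*, *RT1-Db1* and *B2m* were lower in every SHPC sample with BM-MCs than in both MHs, where 16.3% of all probes did not overlap in that direction. The 2 groups shared no set of arrays. With the array set as a block, a fit that links them through the controls of both sets, the difference was -0.12 for *Cd74*, -0.23 for *RT1-Db1*, -0.30 for *RT1-Bb*, -0.20 for *B2m* and 0.050 for *RT1-Da*. Without MH replicate 2, *RT1-Da* differed by -0.71, *RT1-Db1* by -0.74 and *RT1-Bb* by -0.26.

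Between MHs and control SHPCs, 0 of 9 members were called where 1.13% of all probes were, and 2 of the 9, *Cd74* and *B2m*, had an unadjusted p under 0.05, as did 19.2% of all probes. Of the 9, 6 had a higher and 3 a lower mean in MHs, with a median log2 difference of 0.36 against 0.032 over all probes. The counts were 7 and 2 and the median 0.24 without control replicate 3. *Cd74* was 1.66-fold higher in MHs, a log2 difference of 0.74 (95% confidence interval 0.02 to 1.45, adjusted p = 0.251), and lay above all controls in both MHs, where 22.7% of all probes did not overlap in that direction. The class II chains differed by 0.73 for *RT1-Da* (adjusted p = 0.394), 0.64 for *RT1-Db1* (adjusted p = 0.35) and 0.59 for *RT1-Bb* (adjusted p = 0.45). Within the first set of arrays, 2 MH samples against 2 controls, the differences were smaller, at 0.44 for *Cd74*, 0.31 for *RT1-Da*, 0.34 for *RT1-Db1* and 0.40 for *RT1-Bb*. Single libraries carried part of the chain differences. Without MH replicate 2, *RT1-Da* differed by 0.25, *RT1-Db1* by 0.26 and *RT1-Bb* by -0.02, and without MH replicate 1 by 1.21, 1.01 and 1.21.

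Between SHPCs with and without BM-MCs, 0 of 9 members were called where 0.0216% of all probes were. By its brightest probe no member had an unadjusted p under 0.05, against 16.6% of all probes. The dimmer *Tap1* probe had an unadjusted p of 0.043 (limma). Of the 9, 2 had a higher and 7 a lower mean with BM-MCs, with a median log2 difference of -0.11 against 0.018 over all probes. The counts were 1 and 8 and the median -0.25 without control replicate 3. *RT1-Db1* differed by -0.48 (95% confidence interval -1.17 to 0.20, adjusted p = 0.42), *RT1-Da* by -0.46 (-1.33 to 0.40, adjusted p = 0.532), *Cd74* by -0.28 (-0.94 to 0.39, adjusted p = 0.627) and *RT1-Bb* by -0.28 (-0.93 to 0.37, adjusted p = 0.614). The intervals of *RT1-Da* and *RT1-Db1* reached past a 2-fold lower level, so these samples do not bound the difference below that size. The direction rested on the controls of the first set of arrays. Within the second set, the mean of the 3 SHPC samples with BM-MCs was higher than control replicate 3, by 0.31 for *Cd74*, 0.37 for *RT1-Da*, 0.11 for *RT1-Db1* and 0.10 for *RT1-Bb*. Without control replicate 3, the differences were -0.57, -0.88, -0.78 and -0.47 in the same order. Without control replicate 1, they were -0.14, -0.25, -0.33 and -0.08.

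**Figure D3:**
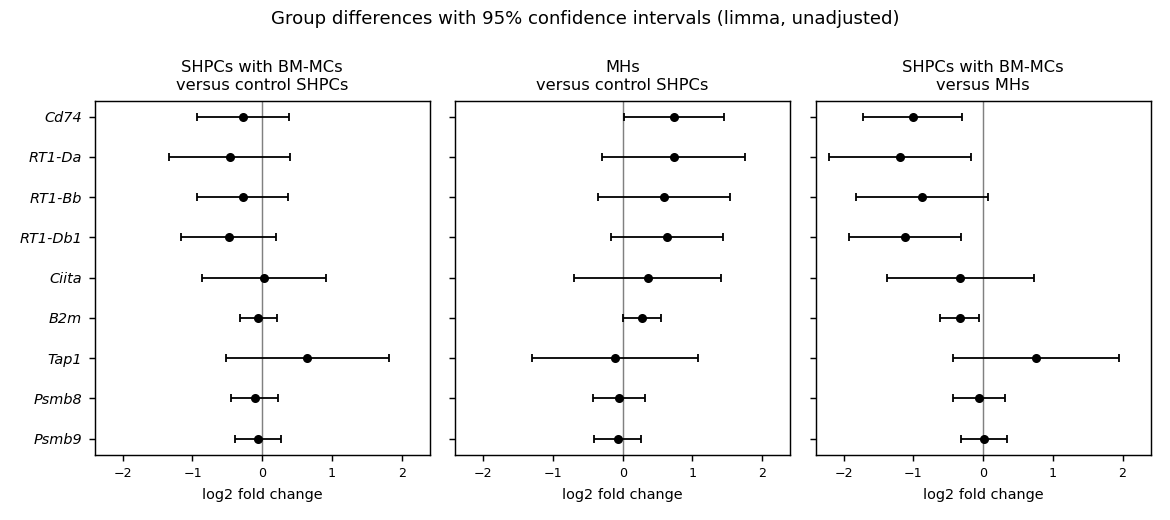
Log2 fold changes (horizontal axes) of the 9 tested members in the 3 comparisons, with 95% confidence intervals from limma that are not adjusted for the number of probes. The class II genes and *B2m* lay above 0 for MHs against control SHPCs and below 0 for SHPCs with BM-MCs against MHs, and no member passed the adjusted threshold.

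Over the sets of arrays, *Cd74*, *RT1-Da*, *RT1-Db1* and *B2m* were higher on all 4 arrays of the first set than on any of the second. That was 4 of 9 tested members, against 3.61% of all probes. Pearson's r over the 8 samples was 0.97 to 0.99 among *Cd74*, *RT1-Da* and *RT1-Db1*, and 0.89 between *Cd74* and *B2m*. These members therefore do not count as separate observations. No member was lower on the whole first set, against 4.89% of all probes. *Cd74* spanned 3.38 to 4.07 on the first set and 2.52 to 3.01 on the second, and *RT1-Da* 2.22 to 3.17 and 1.14 to 1.77. Whether position on the slide plays a part was not tested, since the sets also differ in the groups they hold.

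*Ciita* encodes the class II coactivator. Its brighter probe read -2.92 and -1.90 in MHs, -2.62, -2.35 and -3.33 in control SHPCs, and -3.15, -3.005 and -2.06 in SHPCs with BM-MCs. Replicate 3 of each SHPC group stood apart from the rest of its group, in opposite directions, and all 3 groups overlapped. MH replicate 2 was the highest and control replicate 3 the lowest of all samples, as for *Cd74* and *RT1-Da*. Its log2 difference was 0.03 between SHPCs with BM-MCs and controls (95% confidence interval -0.86 to 0.91), and 0.36 between MHs and controls (-0.70 to 1.41). Within the second set of arrays the first difference was 0.59, and within the first set the second was 0.076. With the array set as a block they were the same, and the difference of SHPCs with BM-MCs from MHs was 0.51 in place of -0.33. The direction of the first value was negative with the dimmer probe, at -0.28. Over the 8 samples, Pearson's r of *Ciita* was 0.47 with *Cd74*, 0.59 with *RT1-Da*, 0.49 with *RT1-Db1*, 0.51 with *RT1-Bb* and 0.63 with *Psmb9*. That of *Cd74* was 0.97 for *RT1-Da*, 0.97 for *RT1-Db1* and 0.84 for *RT1-Bb*. These coefficients are a description over samples that share the group and slide structure given above.

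On the class I side, *B2m* read 5.60 and 5.52 in MHs, 5.33, 5.33 and 5.19 in control SHPCs, and 5.29, 5.26 and 5.12 in SHPCs with BM-MCs. Both MHs stood above all SHPC samples, by 0.28 on average over controls (adjusted p = 0.255) and 0.34 over SHPCs with BM-MCs (adjusted p = 0.322), about 1.21-fold and 1.26-fold. SHPCs with and without BM-MCs overlapped, with a log2 difference of -0.058 (95% confidence interval -0.32 to 0.21). Within sets of arrays, *B2m* differed by 0.24 between MHs and controls and by 0.033 between SHPCs with and without BM-MCs.

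*Tap1*, a subunit of the peptide transporter, had 2 probes, both from the coding part of the transcript, and these are shown because they ranked the samples with BM-MCs differently. In the rn4 build they lie at chr20:4793943-4794002 (brighter probe) and chr20:4797053-4797112 (dimmer probe), both on the minus strand.
Tap1 brighter probe: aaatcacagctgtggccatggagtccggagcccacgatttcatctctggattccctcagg
Tap1 dimmer probe: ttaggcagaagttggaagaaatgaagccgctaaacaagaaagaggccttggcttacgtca
The brighter probe read -2.43 and -2.69 in MHs, -2.61, -2.59 and -2.15 in controls, and -1.42, -2.94 and -1.04 with BM-MCs. With BM-MCs, replicates 1 and 3 were the highest of all samples and replicate 2 the lowest. The dimmer probe read -4.04 and -4.55 in MHs, -4.70, -4.32 and -4.25 in controls, and -4.07, -3.49 and -4.09 with BM-MCs, where replicate 2 was the highest of all. On this probe, the samples with BM-MCs lay above all controls, where 13% of all probes did not overlap in that direction, with a log2 difference of 0.54 (standard error 0.21, adjusted p = 0.289). On the brighter probe the difference was 0.65 (standard error 0.49, adjusted p = 0.519), and it was 0.27 without BM-MC replicate 3 and 1.22 without BM-MC replicate 2. Within the second set of arrays the differences were 0.34 and 0.37.

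The immunoproteasome subunits varied least. *Psmb8* read 3.50 and 3.27 in MHs, 3.51, 3.59 and 3.21 in controls, and 3.22, 3.33 and 3.44 with BM-MCs. *Psmb9* read 1.97 and 1.99 in MHs, 2.16, 2.16 and 1.82 in controls, and 1.94, 1.94 and 2.08 with BM-MCs. Both were highest in control replicates 1 and 2 and lowest in control replicate 3, and the groups overlapped in every comparison. Between SHPCs with BM-MCs and controls, *Psmb8* differed by -0.11 (95% confidence interval -0.45 to 0.23) and *Psmb9* by -0.06 (-0.39 to 0.27). Within the second set of arrays these differences were 0.12 and 0.17, and within the first set MHs differed from controls by -0.17 and -0.19. The second *Psmb8* probe, also the dimmer one, was lower in both MHs than in all controls, by -0.29 (adjusted p = 0.286), where 18.7% of all probes did not overlap in that direction, and its brighter probe differed by -0.05. The brighter *Psmb8* probe was designed on a cDNA clone to which the array's annotation gives no genome position.

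The lists around these genes were read for direction only, since no gene in them passed the adjusted threshold in any comparison. Among 28 measured class I chains, 23 had a higher and 5 a lower mean in MHs than in controls, with a median log2 difference of 0.31 against 0.03 over all probes. In 20 of the 28 both MHs lay above all controls, and in 1 below them, where 22.7% and 18.7% of all probes did so. Without control replicate 3, 26 were higher and 2 lower, with a median of 0.31. The classical heavy chain gene *RT1-A3* read 6.52 and 6.30 in MHs, 5.79, 5.91 and 5.71 in controls, and 5.95, 6.07 and 5.66 with BM-MCs, a difference of 0.61 between MHs and controls (adjusted p = 0.131). *RT1-M2* differed by 0.74 and *RT1-O1* by 0.73 (adjusted p = 0.152 for both), while *RT1-CE1* differed by -0.46 (adjusted p = 0.403) and *Cd1d1*, a lipid-presenting molecule, by -0.092 (adjusted p = 0.796). The rat class I genes are near copies of each other, so their probes may read each other's RNA and do not count as separate observations. With BM-MCs against controls the median of the 28 was 0.03, against 0.02 over all probes, from -0.22 for *Cd1d1* and -0.19 for *RT1-CE5* to 0.72 for *RT1-T24-3* and 0.97 for *RT1-M10-1*, a probe above background on 3 of 7 arrays.

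Of 16 genes for class I loading and peptide supply, 11 were higher and 5 lower with BM-MCs than in controls, with a median of 0.08. *Calr*, the chaperone calreticulin, read 2.44 and 2.28 in MHs, 1.68, 1.503 and 1.98 in controls, and 2.19, 2.63 and 2.53 with BM-MCs. Its log2 difference from controls was 0.73 with BM-MCs (adjusted p = 0.172) and 0.64 in MHs (adjusted p = 0.158). *Tapbpl*, a tapasin relative, differed by 1.75 with BM-MCs (adjusted p = 0.265), and was above background on 5 of 7 arrays. At the other end of the list *Psme2*, a proteasome activator subunit, differed by -0.12 (adjusted p = 0.622) and *Psmb6*, a constitutive catalytic subunit, by -0.096 (adjusted p = 0.695). *Nlrc5*, the class I counterpart of Ciita, differed by 0.78 between MHs and controls (adjusted p = 0.146).

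Of 13 class II partners measured, 12 had a higher and 1 a lower mean in MHs than in controls, with a median of 0.37. The peptide exchange chains *RT1-DMa* and *RT1-DMb* differed by only 0.012 and -0.011. The proteases *Ctsd*, *Ctsb* and *Ctsl* differed by 0.50, 0.37 and 0.37. Without control replicate 3, the counts were 11 and 2 and the median 0.23. *RT1-Db2*, a second RT1-D beta chain gene, read 0.91 and 1.91 in MHs, 1.13, 0.94 and 0.14 in controls, and 0.71, 0.03 and -0.02 with BM-MCs. Its differences were -0.50 with BM-MCs against controls (adjusted p = 0.456) and 0.67 between MHs and controls (adjusted p = 0.399). With BM-MCs against controls the list split into 7 higher and 6 lower, from -0.50 for *RT1-Db2* and -0.36 for *RT1-DMa*, a chain of the peptide exchange factor, to 0.96 for *Marchf1*, a ubiquitin ligase that removes class II from the surface. *Cd40*, a costimulatory receptor, differed by 0.24. Without control replicate 3 the split was 5 higher and 8 lower. The peptide exchange modulators *RT1-DOa* and *RT1-DOb* and the costimulatory ligand *Cd80* were not tested, being well above background on 0, 1 and 0 of the 7 scored arrays.

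Among 10 factors that act on class II promoters, the median difference was 0.01 with BM-MCs against controls. *Irf4*, a lymphoid and dendritic cell factor, was the nearest of the lists to the threshold, at -4.08 and -4.25 in MHs, -4.88, -4.97 and -5.04 in controls, and -3.93, -4.27 and -4.02 with BM-MCs. All controls were below all other samples, with a difference of 0.89 with BM-MCs (adjusted p = 0.0925) and 0.80 in MHs (adjusted p = 0.0530). Of the Y box factor's subunits, *Nfyb* differed by -0.49 with BM-MCs (adjusted p = 0.283) and *Nfya* by -0.21 (adjusted p = 0.78). *Spi1*, a myeloid and B cell factor, differed by 0.50 (adjusted p = 0.4). Of 17 interferon gamma signalling genes, 14 were higher and 3 lower with BM-MCs, with a median of 0.07, from -0.28 for the chemokine *Cxcl10* and -0.092 for the kinase *Jak2* to 0.51 for the GTPase *Gbp2* and 0.56 for the feedback inhibitor *Socs3*. Without control replicate 3, 10 were higher and 7 lower, with a median of 0.024. *Ifng* itself was not well above background.

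Macrophage markers moved with the class II genes over part of the samples. The summed linear level of the 20 macrophage and Kupffer cell markers, relative to each array's 75th percentile, ran from 125 to 128 in MHs, from 66.0 to 95.3 in control SHPCs and from 81.3 to 110 in SHPCs with BM-MCs. Of the 20, 18 were higher in MHs than in controls, with a median log2 difference of 0.56, the same direction as the class II members. With BM-MCs against MHs, 2 were higher and 18 lower (median -0.39), again the direction of the class II members. With BM-MCs against controls, 13 were higher and 7 lower, with a median of 0.12, whereas all 4 class II members had lower means. Without control replicate 3, a choice made after seeing the data, 9 of the markers were higher and 11 lower, with a median of -0.062. *Cd68* read 2.09 and 2.30 in MHs, 1.58, 1.53 and 0.97 in controls, and 1.80, 1.79 and 1.26 with BM-MCs, and so was lowest in control replicate 3, as were *RT1-Da* and *Cd74*. The marker list was mixed in this. *Marco*, *Adgre1*, *Vsig4*, *Csf1r*, *Lyz2*, *Mrc1* and *Mpeg1* were lowest in another sample, and *Cd14* was highest in control replicate 3, at -0.26. Of 8 markers of sinusoidal endothelium, 7 were higher and 1 lower in MHs than in controls (median 0.25), and likewise 7 and 1 with BM-MCs against controls (median 0.16). Without control replicate 3 the counts were 8 and 0 (median 0.32) and 7 and 1 (median 0.26). The summed level of these endothelial markers ran from 15.5 to 18.7 in MHs, from 13.6 to 15.6 in controls and from 15.5 to 17.6 with BM-MCs. The part of macrophages or endothelium in the class II values was not tested. Hepatocyte markers had a median difference of -0.13 between MHs and controls and -0.07 with BM-MCs, which without control replicate 3 were -0.066 and 0.017, with summed levels of 1453 to 1455, 1430 to 1624 and 1292 to 1588 in MHs, controls and SHPCs with BM-MCs. Erythroid markers summed to 108 in control replicate 3, to 32.1 and 33.4 in the other controls, and to 15.1 to 21.2 with BM-MCs. Of the 8, 1 was higher and 7 lower with BM-MCs than in controls (median -1.38, and -0.89 without control replicate 3), the direction of the class II means. In MHs against controls, 1 was higher and 7 lower (median -0.74, and -0.14 without control replicate 3), opposite to the class II means. All 3 granulocyte markers tested, of 10 on the array, were lower with BM-MCs than in controls (median -1.46). Of them *S100a9* had an adjusted p of 0.0676 and *S100a8* of 0.117 (limma). All 3 were also lower in MHs than in controls (median -0.64), where the class II means were higher.

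**Figure D4:**
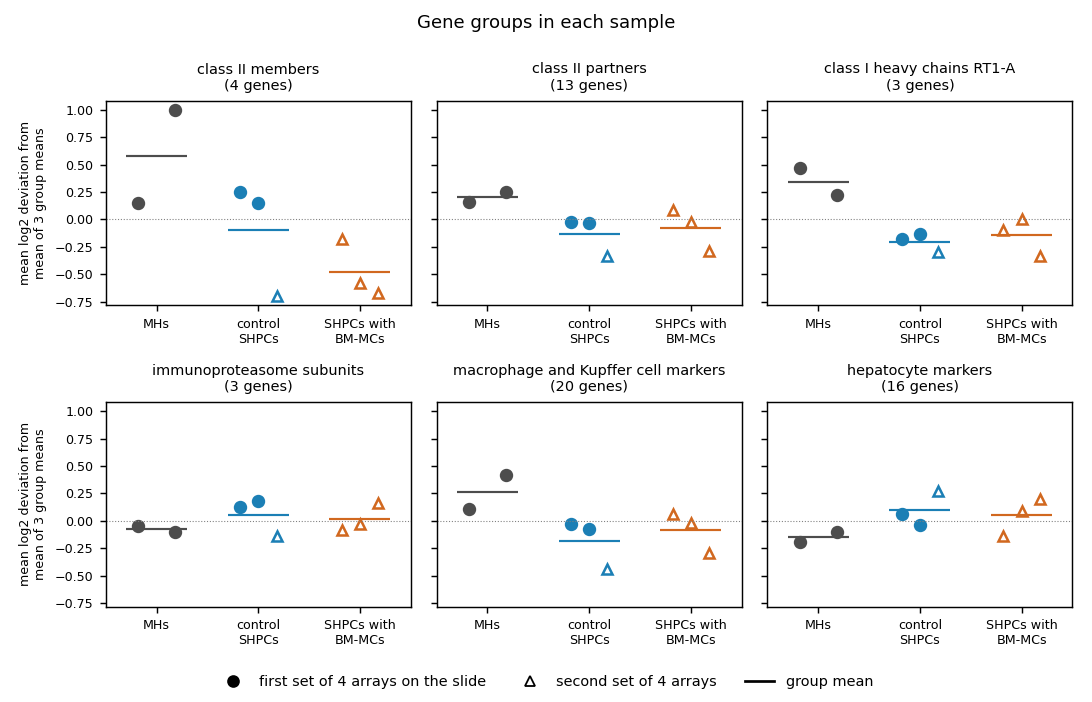
Mean log2 deviation of each gene group from the mean of the 3 group means (vertical axis), per sample, with symbols as in the plot of the members by sample. Class II members and macrophage and Kupffer cell markers were both highest in MH replicate 2 and lowest in control SHPC replicate 3, while the class II members were also low in SHPCs with BM-MCs.

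Genes outside the list whose sample pattern was most like that of *Cd74*, by Pearson's r over the 8 samples, were *Fcgr2a*, a receptor for antibody on myeloid cells (0.98), *Alg9* (0.98), *Ppm1m* (0.98), *Selenok-ps2* (0.98) and *Nkpd1* (0.98). *Fcgr2a* read 0.95 and 1.12 in MHs, 0.72, 0.78 and 0.19 in controls, and 0.63, 0.37 and 0.12 with BM-MCs. For *Psmb8* they were *Paics*, an enzyme of purine synthesis (0.94), *Eola2* (0.94), *LOC102551951* (0.93), *Fam174c* (0.93) and *LOC102556410* (0.92). Of 22969 probes with a value on every array, 0.893% had an r above 0.9 with *Cd74* and 0.104% with *Psmb8*. With 8 samples that fall into groups and sets of arrays, these coefficients describe the samples and carry no test.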

How the data were processed

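RNA of laser-microdissected cells was labelled with Cy3 and hybridised to 1-colour Agilent rat arrays. Per the labels, the authors used Agilent Feature Extraction 10.7, and the deposited values are processed intensity, with background already subtracted and no scaling between arrays. The scanner file of control SHPC replicate 2 held 20903 of 62976 features, so the deposited value table supplied its intensities (over the features both hold, table and scanner signals differed by a relative 1.19e-06 at most), and its background marks were not used. Signals were set to log2 minus the array's 75th percentile, outlier spots were dropped and repeated spots of a probe were averaged. No spot was saturated, and 57.0% to 61.5% of spots were well above background. A probe entered the fit if 3 or more of the 7 arrays with complete marks scored it as well above background, which 23111 did. The test was limma 3.58.1 (R 4.3.3) with Benjamini-Hochberg adjustment. SHPCs with and without BM-MCs were fitted on their 6 samples, and the other 2 comparisons on all 8. Each gene is given by its brightest tested probe. In each list other than the cell type markers, genes were named by rule. These are the genes past the threshold and those with the 2 highest and 2 lowest fold changes between SHPCs with and without BM-MCs (for class I chains also between MHs and controls). Others were named after their values were seen. The symbols *March1*, *March8*, *G6pc* and *Hba1* were merged with their current names. Members and lists were chosen with earlier results of these data known. On simulated data, 88% of 4-fold and 41% of 2-fold changes were recovered in the comparison of SHPCs with and without BM-MCs, over 22969 probes. Alternatives covered scaling, background, filters, blocks, the methods' t-test and each sample left out. Promoters are RefSeq, GRCr8.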

Additional observations from a re-analysis of the deposited data

How the results depend on the processing

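No member passed the adjusted threshold under any alternative, and at an unadjusted p the methods' t-test called 0 members with BM-MCs against controls, 1 in MHs against controls and 3 with BM-MCs against MHs. Of 585 member values under alternatives, 544 kept their direction. Counts of probes past the threshold, 5, 262 and 78 for SHPCs with BM-MCs against controls, MHs against controls and SHPCs with BM-MCs against MHs, depended on the processing, and the causes were not tested. For SHPCs with BM-MCs against controls the count was 213 without scaling, 3 when every scored array had to be above background, with a floor for dim spots, or with normexp and quantile normalization, 0 without a filter, 33 with an intensity trend, 22 with all 8 samples in the fit, 3453 and 0 by the methods' t-test without and with adjustment. Without each sample in turn it ran from 0 to 530, the highest without control replicate 3. For MHs against controls it was 136 without a filter, 124 with normexp, 559 with a trend, 4037 and 0 by the t-test without and with adjustment, and 55 to 523 without each sample. For SHPCs with BM-MCs against MHs it was 50 with median scaling, 7 with quantile normalization, 1 without a filter, 5 with normexp, 3 with the array set as a block, 130 with a trend, 0 with only both groups in the fit, 2141 and 0 by the t-test, and 0 to 115 without each sample.

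The replicate block, with same-numbered samples as pairs, gave 0, 159 and 0 probes and turned *Tap1* in MHs against controls to 0.16. Same-numbered SHPC samples with and without BM-MCs had deviations correlated at 0.13, 0.078 and 0.17, so the numbers were not taken as pairs.

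Other reversed directions were mostly of values near 0. With BM-MCs against controls, median scaling gave *Ciita* -0.17, quantile normalization gave *Ciita* -0.051, *B2m* 0.035, *Psmb8* 0.018 and *Psmb9* 0.014, normexp gave *B2m* 0.073, *Psmb8* 0.072 and *Psmb9* 0.039, and the mean of both probes gave *Ciita* -0.13. The array set as a block gave *Cd74* 0.31, *RT1-Da* 0.37, *RT1-Bb* 0.10, *RT1-Db1* 0.11, *B2m* 0.033, *Psmb8* 0.12 and *Psmb9* 0.17. In MHs against controls, quantile normalization gave *Psmb8* 0.022, normexp *Psmb8* 0.074 and *Psmb9* 0.037, no scaling *Psmb8* 0.036 and *Psmb9* 0.016, the array set *Tap1* 0.043 and the mean of both probes *Tap1* 0.0084. With BM-MCs against MHs, median scaling gave *Psmb9* -0.19, no scaling *Psmb9* -0.068, the mean of both probes *Psmb8* 0.027, and the array set *RT1-Da* 0.050, *Ciita* 0.51 and *Psmb8* 0.29. Leaving out single samples moved *Ciita* from -0.31 to 0.23 with BM-MCs against controls, from -0.15 to 0.87 in MHs against controls and from -0.84 to 0.18 with BM-MCs against MHs. In MHs against controls it moved *RT1-Bb* from -0.024 to 1.21, *Tap1* from -0.24 to 0.043 and *Psmb8* from -0.17 to 0.060, and with BM-MCs against MHs *Psmb8* from -0.17 to 0.054 and *Psmb9* from -0.036 to 0.039. The second form of the X1 box, chosen after seeing the data, was found in 3 member promoters, against 5 with the first. A member close to background has only a coarse value, and the number of arrays limits every comparison.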
